A study of Mus musculus with 58 samples.

Results

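Quadriceps muscle of CUGexp transgenic Line 41 mice was compared with quadriceps of FVB wild-type mice. The members were taken from the array titles of the first experiment: 6 line 41 mice and 6 wild-type mice, each hybridised to the Affymetrix arrays 430A and 430B. These are 12 of the 34 mice and 24 of the 58 arrays of the series. All 12 were males of 6 months on the FVB strain, with no treatment beyond the genotype. The transgene of line 41 gives rise to RNA with an expanded CUG repeat, and in mice of this kind it is built on the human skeletal actin gene, so that the repeat is made in muscle fibres. Line 41 is 1 transgenic line, and an effect of the repeat RNA and one of the place where the transgene sits cannot be told apart within this comparison. The genotypes set beside it are 6 males of a second repeat line, line 20b (CUGexp transgenic, FVB, 6 months), which share the wild-type mice, 5 Mbnl1-null mice on the FVB background against 5 FVB wild-type mice, and 3 Clcn1-null mice on the BALB background against 3 BALB wild-type mice. The mice of these last comparisons were males of 3 months in experiments of their own. The study addressed how a repeat RNA changes transcript levels in muscle.

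Myotonic dystrophy arises from an expanded repeat that is transcribed into RNA and held in foci in the nucleus. The repeat binds muscleblind proteins, which steer the splicing and stability of many muscle transcripts, and the loss of functional chloride channel Clcn1 makes the fibre membrane fire repeatedly, which is myotonia. Arrays of this design read short stretches near the end of a transcript, so they report its level and not how it was spliced.

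Of the 12955 genes tested, 1223 were called between line 41 and wild type at an adjusted p under 0.05, which is 9.44%. Line 41 was higher for 514 of them (3.97% of the genes tested) and lower for 709 (5.47%), and the change reached 2-fold for 72 and 37 of these. Under quantile normalisation 649 genes were called higher and 645 lower. The median log2 difference over all genes tested was -0.0173. The ranges of the 6 and 6 mice did not overlap for 564 genes (4.35%). The median intensity of an array ran from 398.4 to 437.8 on 430A and from 30.2 to 34.39 on 430B. Wild-type mice 1 and 2 and line 41 mouse 3 stood apart most: 268, 307 and 352 genes lay more than 1 log2 unit from the median of their own group, against 79 to 210 in the other mice. Without wild-type mice 1 and 2, 773 genes were called, 365 higher and 408 lower, and each gene list below is given with its counts of higher and lower calls without these mice and over the 12 fits that leave out a single mouse. With a single mouse left out, between 888 (without wild-type mouse 1) and 1256 genes were called. The counts of each list are to be set beside the shares over all genes tested, 3.97% higher and 5.47% lower. Muscle genes were bright in every mouse: skeletal actin Acta1 read 81584, 85354 and 99679 in line 41 mice, against 77720.1, 92339 and 101000.3 in wild-type mice. Fast myosin Myh4 read 108249, 112771 and 119281 in line 41 mice, against 112690.0, 118299 and 121449.8 in wild-type mice. In these lists of values, 3 intensities for a group are the lowest, the median and the highest of its 6 mice, and a log2 difference is line 41 minus wild type and SE is its standard error from limma.

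**Figure D1:**
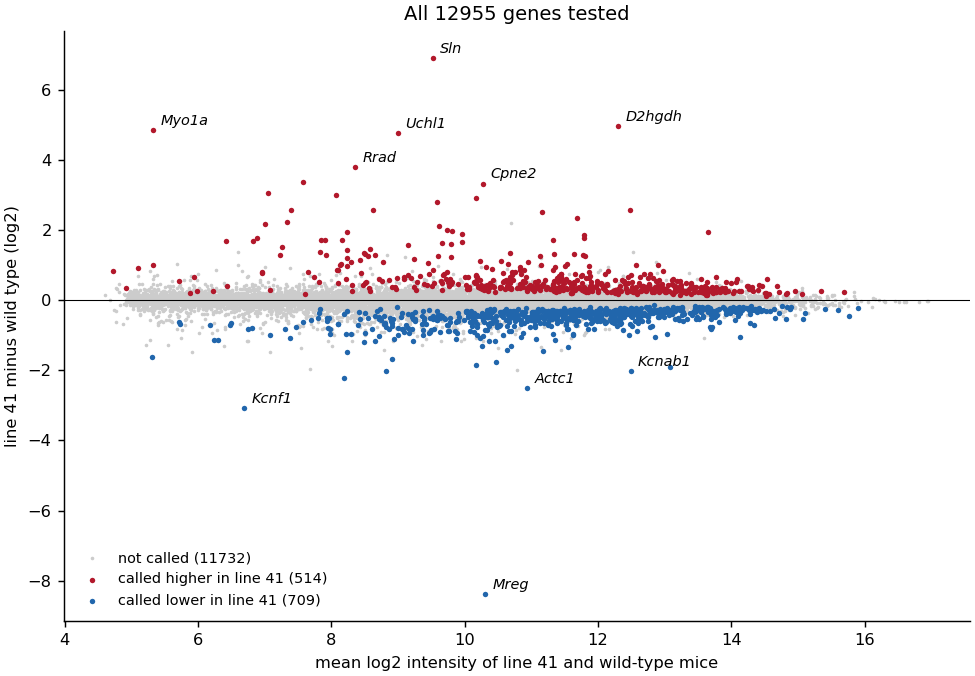
Line 41 minus wild type (log2) for each of the 12955 genes tested, against the mean log2 intensity of the 12 mice; red points were called higher in line 41 (514), blue points lower (709) and grey points were not called. Mreg lies alone at the bottom at -8.38, and Sln lies at the top at 6.91.

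The 2 genes by which the models of this series are built come first. Mbnl1, the muscleblind protein that the repeat binds, read 22772, 23749 and 25888 in line 41 mice, against 23461, 25017 and 26213 in wild-type mice, and the groups overlapped (log2 difference -0.047, SE 0.046, adjusted p = 0.61). Of the other Mbnl1 probe sets, both dimmer and on 430B, one was called higher (log2 difference 0.63, SE 0.14, adjusted p = 0.0086) and one was not called (0.4, SE 0.16). Clcn1, the chloride channel that damps the excitability of the fibre, read 3055, 3557 and 4327 in line 41 mice, against 4165, 5017 and 6295 in wild-type mice (log2 difference -0.46, SE 0.10, adjusted p = 0.006). Only the highest line 41 mouse reached above the lowest wild-type mouse for Clcn1. In line 20b, Clcn1 was further below the same wild-type mice (-0.95, SE 0.10), and the 2 lines differed (line 41 minus line 20b 0.49, SE 0.10, adjusted p = 0.007). Acta1, whose human counterpart drives the transgene, did not pass the test (log2 difference -0.023, SE 0.067, adjusted p = 0.89).

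Melanoregulin, Mreg, a protein of organelle transport and membrane traffic, showed the largest difference. Its probe set read 61.2, 68.8 and 84.7 in line 41 mice, against 17743, 23891 and 28212 in wild-type mice (log2 difference -8.38, SE 0.10, adjusted p = 4.8e-20), which is 333-fold lower in line 41. The highest line 41 mouse lay far below the lowest wild-type mouse. Line 20b did not share the fall: it was above wild type (0.64, SE 0.10), and line 41 minus line 20b was -9.02, SE 0.10, adjusted p = 1.3e-20. In Mbnl1-null muscle the difference from wild type was 0.25, SE 0.18, and in Clcn1-null muscle it was -0.076, SE 0.32. Mreg has 1 probe set among those tested, so the fall has no second reading on these arrays. The 4 nearest genes tested on each side of Mreg on chromosome 1 were Spag16, Abca12, Atic, Fn1, Pecr, Xrcc5, Smarcal1 and Rpl37a. None of the 8 was called. Their log2 differences ran from -0.25 for Xrcc5 to 0.10 for Fn1, and the lowest adjusted p was 0.057 for Atic. Of 16 genes tested for melanoregulin partners and organelle transport, the other called members were Sytl2, a synaptotagmin-like protein of vesicle transport that was called lower, and Myo5a, the motor that carries melanosomes in pigment cells, which rose (0.57, SE 0.13). Sytl2 read 8.90, 23.9 and 46.8 in line 41 mice, against 33.4, 65.2 and 181 in wild-type mice, with the line 41 median below 32, the intensity a gene had to reach in at least 6 mice to be tested. The size of its difference is therefore not given. The other Myo5a probe sets rose further (2.10 and 2.19). The list's counts were 1 and 2 without wild-type mice 1 and 2, 1 to 2 and 2 to 3 with a single mouse left out.

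The promoters of Mreg and of cardiac actin Actc1, both of which fell without overlap, are shown from RefSeq on GRCm38.p6 and run 5′ to 3′ across the annotated start of the gene, the first of 2 such starts for Mreg. Capitals mark each CANNTG (the E-box, bound by myogenic factors) and each CArG box (bound by serum response factor), searched on both strands.
Mreg, chr1:72212265-72212564, minus strand: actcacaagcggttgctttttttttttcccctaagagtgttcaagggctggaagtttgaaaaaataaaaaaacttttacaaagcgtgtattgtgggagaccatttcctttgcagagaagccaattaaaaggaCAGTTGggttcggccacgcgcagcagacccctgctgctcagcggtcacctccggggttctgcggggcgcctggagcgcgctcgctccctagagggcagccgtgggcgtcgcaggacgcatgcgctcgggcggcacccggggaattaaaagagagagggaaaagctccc
Actc1, chr2:114052826-114053125, minus strand: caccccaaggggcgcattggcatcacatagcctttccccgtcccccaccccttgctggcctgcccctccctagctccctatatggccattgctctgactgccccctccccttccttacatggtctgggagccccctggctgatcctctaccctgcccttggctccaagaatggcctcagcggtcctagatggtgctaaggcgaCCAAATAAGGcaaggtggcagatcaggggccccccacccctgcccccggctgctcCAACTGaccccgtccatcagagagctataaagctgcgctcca
Each promoter holds 1 CANNTG, and the Actc1 promoter holds 1 CArG box. Among 32841 promoters of this length, 72.3% held a CANNTG and 1.63% a CArG box. A match of letters is a description and not a site in use.

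The largest rises included Sln and Rrad, of calcium handling, and the neuronal gene Uchl1. Sarcolipin, Sln, a short peptide that restrains calcium uptake into the store, read 6221, 7649 and 10877 in line 41 mice, against 4.52, 99.0 and 245 in wild-type mice (log2 difference 6.91, SE 0.64, adjusted p = 1.6e-06). Without wild-type mouse 2 the difference was 6.14 with an adjusted p of 6.58e-10. All line 41 mice lay above all wild-type mice. Uchl1, a ubiquitin hydrolase abundant in neurons, read 1236, 2827 and 6123 in line 41 mice, against 21.3, 105 and 233 in wild-type mice, again without overlap (log2 difference 4.77, SE 0.47, adjusted p = 3.3e-06). Rrad, a small GTPase that inhibits the voltage-gated calcium channel, read 474, 1034 and 3702 in line 41 mice, against 28.8, 70.9 and 495 in wild-type mice (log2 difference 3.80, SE 0.71, adjusted p = 0.0022). Its groups overlapped, because 1 wild-type mouse reached above the lowest line 41 mouse. Myo1a, a myosin known from the brush border of the gut, read 155, 199.6 and 341 in line 41 mice, against 4.81, 8.40 and 10.7 in wild-type mice. No wild-type mouse reached an intensity of 32, so Myo1a was at least 6.77-fold higher in line 41 when wild type is set at 32 (adjusted p = 1.4e-09). Cpne2, a calcium-dependent membrane-binding copine, read 2902, 3917 and 5138 in line 41 mice, against 321, 399 and 476 in wild-type mice (log2 difference 3.33, SE 0.16, adjusted p = 8.2e-11), with tight and separate groups.

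D2hgdh, Vps37c and Ttc7 rose in line 41, and D2hgdh and Vps37c were not called higher in Mbnl1-null muscle. D2hgdh, the mitochondrial enzyme that breaks down D-2-hydroxyglutarate, read 21380.4, 30341 and 32183 in line 41 mice, against 728, 934 and 1093 in wild-type mice (log2 difference 4.98, SE 0.14, adjusted p = 5.6e-14). A second D2hgdh probe set, on 430A, showed no such difference (log2 difference -0.028, SE 0.094). By the probe set used, D2hgdh differed from wild type by 4.86, SE 0.14 in line 20b and -0.26, SE 0.16 in Mbnl1-null muscle. The 8 nearest genes tested around D2hgdh on chromosome 1, among them Thap4, Dtymk and Gal3st2, were not called and ran from -0.44 to 0.084. Vps37c, a subunit of the ESCRT-I sorting complex, read 10463, 14577 and 16974 in line 41 mice, against 2084, 2154 and 2868 in wild-type mice (log2 difference 2.58, SE 0.12, adjusted p = 8.2e-11), and its second probe set rose by less (0.31). In line 20b Vps37c differed by 2.50, SE 0.12 and in Mbnl1-null muscle by 0.075, SE 0.11. Ttc7, a tetratricopeptide repeat protein, read 327, 442 and 494 in line 41 mice, against 43.9, 75.5 and 105 in wild-type mice (log2 difference 2.58, SE 0.20, adjusted p = 3.1e-07), and its second probe set did not pass the test (0.48). Ttc7 differed by 2.78, SE 0.20 in line 20b. Its Mbnl1-null value is not given, because it may be that of a gene of a longer name.

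**Figure D2:**
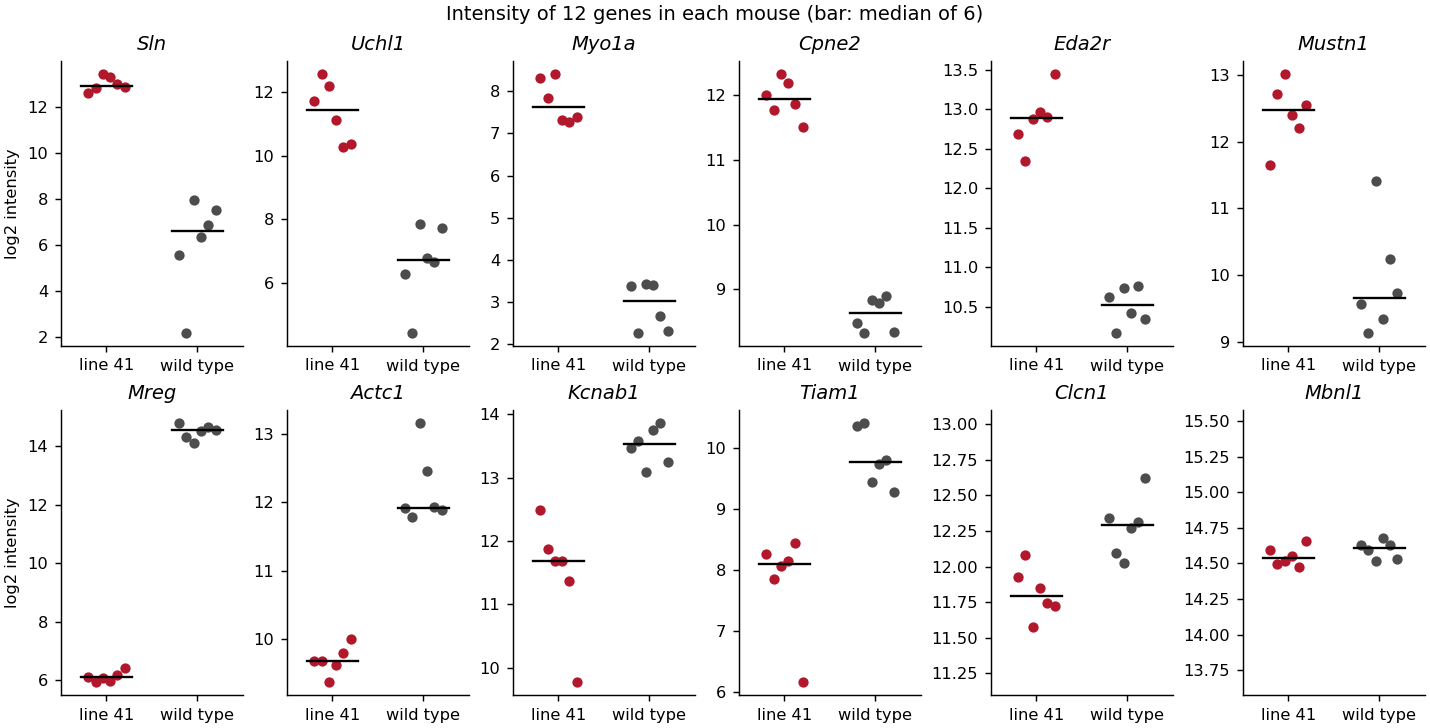
Log2 intensity of 12 genes in each of the 6 line 41 mice (red, left) and 6 wild-type mice (grey, right); black bars are medians, and each panel has its own scale of at least 2 log2 units. The 2 groups are apart for the first 10 genes, overlap at the edge for Clcn1 and overlap for Mbnl1.

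The groups did not overlap for the genes from Mpzl3 to Lrtm2 that follow. Mpzl3, a membrane protein of the myelin P0 family, read 271, 404 and 532 in line 41 mice, against 25.8, 47.5 and 95.3 in wild-type mice (3.06, SE 0.27). Fam171b read 438, 666 and 1432 in line 41 mice, against 18.3, 114 and 240.1 in wild-type mice (2.99, SE 0.46). Cilp, a matrix protein of cartilage, read 2018, 3385 and 5619 in line 41 mice, against 311, 404 and 649 in wild-type mice (2.92, SE 0.23). Plekho1, a pleckstrin domain protein that binds casein kinase, rose by 2.81, SE 0.29, and the membrane protein Evi2a by 2.59, SE 0.44. Mustn1, a nuclear protein of regenerating muscle and bone, read 3227, 5701 and 8283 in line 41 mice, against 562, 805 and 2732 in wild-type mice (2.52, SE 0.30). Osbpl3, an oxysterol-binding protein, rose by 2.23, SE 0.20, the glycosyltransferase Galnt7 by 2.11, SE 0.21 and Lrtm2 by 1.99, SE 0.31. Neu2, the cytosolic sialidase, read 160.2, 222 and 558 in line 41 mice, against 13.6, 101 and 176 in wild-type mice and its groups overlapped (2.18, SE 0.57, adjusted p = 0.02). The Neu2 call was lost without wild-type mice 1 and 2 (1.58 with an adjusted p of 0.0992).

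The falls after Mreg were smaller. Actc1, the cardiac actin that skeletal muscle makes mainly before birth, read 661, 815 and 1018 in line 41 mice, against 3509, 3869.8 and 9146 in wild-type mice (log2 difference -2.50, SE 0.18, adjusted p = 7.4e-08), and all line 41 mice lay below all wild-type mice. Kcnab1, a beta subunit of voltage-gated potassium channels, read 876, 3290.3 and 5741 in line 41 mice, against 8731, 11814 and 14899.7 in wild-type mice (log2 difference -2.02, SE 0.33, adjusted p = 0.0007). Tiam1, an exchange factor that activates Rac, read 71.4, 274 and 346 in line 41 mice, against 618, 873 and 1355 in wild-type mice (log2 difference -2.02, SE 0.36, adjusted p = 0.0015). Mib1, a ubiquitin ligase of Notch signalling, read 2258, 4024 and 8238 in line 41 mice, against 11927, 18396 and 19893 in wild-type mice (log2 difference -1.89, SE 0.25, adjusted p = 0.00012). The groups were apart for all 3. Dkk3, a secreted protein of the dickkopf family, fell by 1.85 on the log2 scale and the phospholipase Pla2g7 by 1.77, also without overlap. A second Dkk3 probe set was also called lower (adjusted p = 1.2e-09). Its line 41 mean lay below an intensity of 32, so the size of that fall is not given. Kcnf1, a modifier subunit of potassium channels, read 10.2, 30.1 and 190.5 in line 41 mice, against 42.9, 238 and 3689 in wild-type mice (-3.08, SE 0.82, adjusted p = 0.025). The line 41 median lay below an intensity of 32, so this difference is no measure of the size of the fall. The Kcnf1 groups overlapped widely, a second probe set read -0.82 and was not called, and the call was lost without line 41 mouse 4 (-2.72 with an adjusted p of 0.0588) and without wild-type mouse 4 (-2.86 with an adjusted p of 0.0544). Without wild-type mouse 5 it was -2.36 with an adjusted p of 0.038.

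Further falls without overlap were the cell adhesion protein Cdh4 (-1.45, SE 0.20), the actin regulator Vasp (-1.42, SE 0.22), the dehydrogenase Dhdh (-1.33, SE 0.20) and Gucy1a1, a subunit of the nitric oxide receptor (-1.16, SE 0.13). The other Gucy1a1 probe sets read -0.33 and 0.027. Trnp1 (-1.66, SE 0.40), the sphingosine phosphate receptor S1pr3 (-1.49, SE 0.38), Casp12 (-1.29, SE 0.30) and Ankrd44 (-1.17, SE 0.28) were called with overlapping groups. Each of these 4 calls was lost without wild-type mice 1 and 2, with adjusted p-values of 0.06, 0.098, 0.062 and 0.069 in the same order. A second probe set read 0.024 for Trnp1 and -0.069 for S1pr3. Col4a5, a basement membrane collagen, was called lower by the probe set used (-1.20, SE 0.26, adjusted p = 0.0076), while a brighter probe set of the gene on these arrays read 0.027. Gdap1, a protein of mitochondrial fission and peripheral nerve, read 434, 1093 and 1499 in line 41 mice, against 1531, 1871 and 3099.9 in wild-type mice (-1.16, SE 0.34, adjusted p = 0.037). The other Gdap1 probe sets read -0.95, -0.60 and -0.082 and were not called. The Gdap1 groups did not overlap, but the call was lost without line 41 mouse 3 (-0.94 with an adjusted p of 0.0873), mouse 4 (-1.15 with an adjusted p of 0.0637) or mouse 6 (-1.04 with an adjusted p of 0.0785), and without wild-type mouse 1 (-1.06 with an adjusted p of 0.0853) or mouse 2 (-1.05 with an adjusted p of 0.0753).

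**Figure D3:**
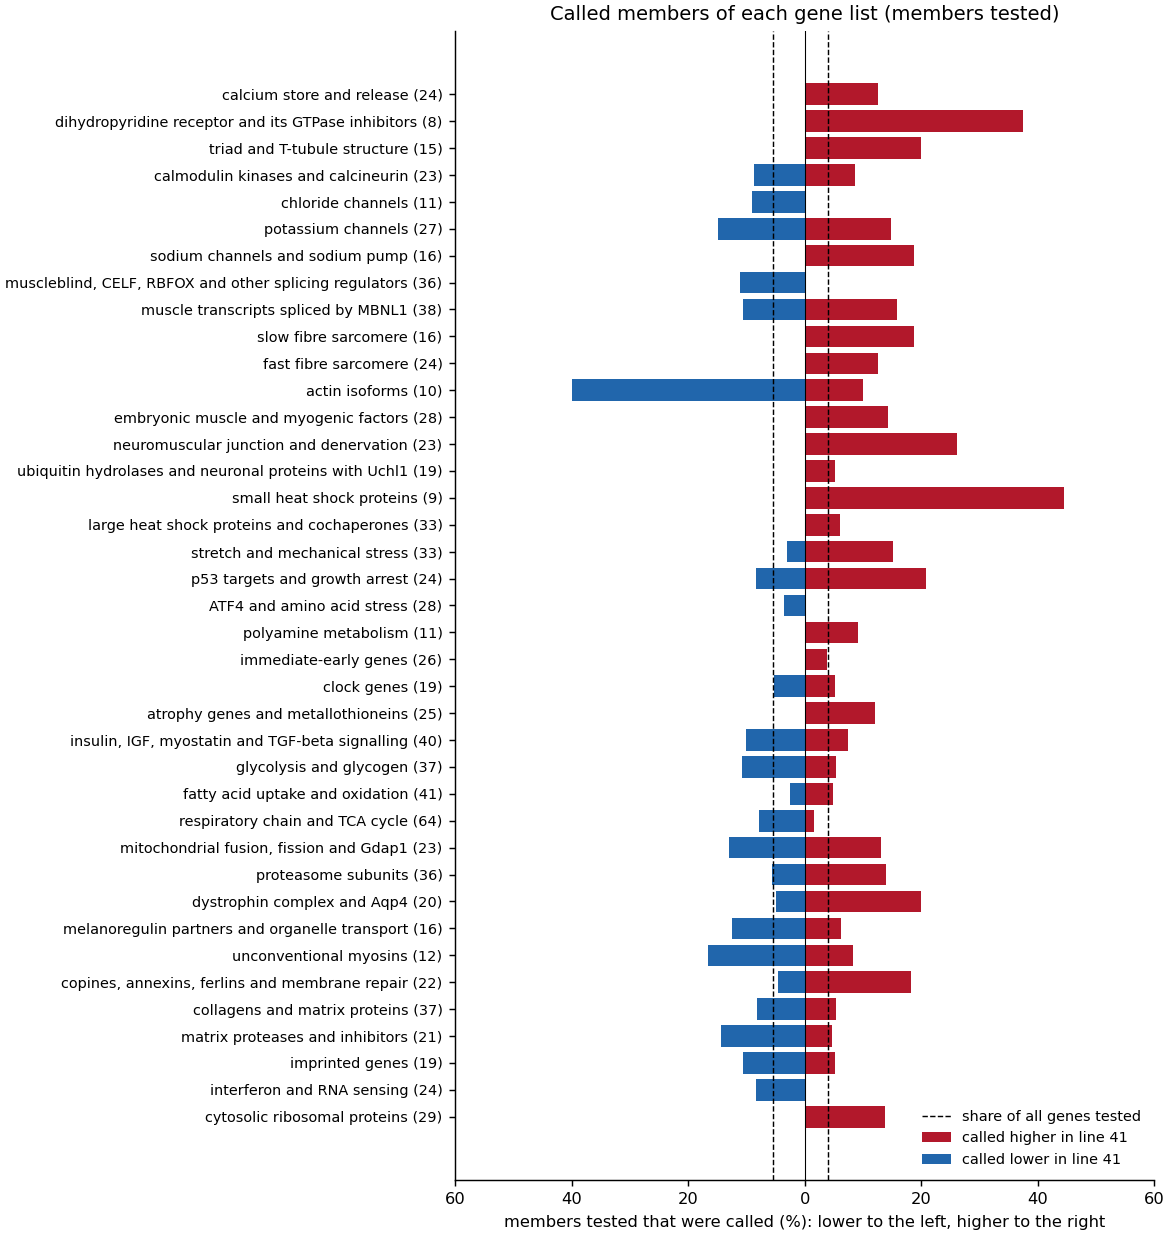
Share of the tested members of each gene list shown that was called higher (red, to the right) or lower (blue, to the left) in line 41; dashed lines are the shares over all genes tested (3.97% higher and 5.47% lower) and numbers in brackets are members tested. The small heat shock proteins and the calcium channel list reach farthest to the right, and the actin list farthest to the left.

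Excitation-contraction coupling was described by 3 lists. Among genes of the calcium store and its release, 3 of 24 members tested were called higher and 0 lower (2 and 0 without wild-type mice 1 and 2, 3 to 4 and 0 with a single mouse left out), with a median log2 difference of 0.078. Beside Sln, S100a1, a calcium-binding modulator of the ryanodine receptor, read 9844, 10973 and 12425 in line 41 mice, against 7601, 8930.0 and 9436 in wild-type mice (0.35, SE 0.075, adjusted p = 0.0068), without overlap. A second S100a1 probe set read 0.18 and was not called. Jsrp1, a protein of the junctional face of the store, rose by 0.49, SE 0.12, and the call was lost without wild-type mice 1 and 2 together (adjusted p up to 0.07). The release channel Ryr1 (0.13, SE 0.06), the fast calcium pump Atp2a1 (-0.024, SE 0.091) and calsequestrin Casq1 (0.017, SE 0.057) did not pass the test. Of the dihydropyridine receptor and the GTPases that inhibit it, 3 of 8 members tested were called higher and 0 lower (2 and 0 without wild-type mice 1 and 2, 2 to 3 and 0 with a single mouse left out). The channel's gamma subunit Cacng1 read 4324, 4872 and 5989 in line 41 mice, against 2478, 2788 and 3158 in wild-type mice (0.81, SE 0.081, adjusted p = 3.6e-06), with no overlap. The pore subunit Cacna1s rose by 0.32, SE 0.09, and its call was lost without line 41 mouse 3 or 4, wild-type mouse 1, 2 or 3 or wild-type mice 1 and 2 together (adjusted p up to 0.16). Among triad and T-tubule genes, 3 of 15 members tested were called higher and 0 lower (3 and 0 without wild-type mice 1 and 2, 3 to 4 and 0 to 1 with a single mouse left out). The called members included Bin1, which shapes the T-tubule membrane, at 11642, 12534 and 14797 in line 41 mice, against 8611, 9025 and 9981 in wild-type mice (0.49, SE 0.059, adjusted p = 3.5e-05), and Bves, a membrane protein that binds cyclic AMP (0.49, SE 0.079). The groups were apart for both of these genes, although a second Bves probe set read -0.038. Dysferlin, Dysf, a protein of membrane repair, rose by 0.47, SE 0.11, and its call was lost without wild-type mice 1 and 2 together (adjusted p up to 0.059).

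Transcripts of calmodulin kinases and calcineurin were called in both directions. Of the calmodulin kinases and calcineurin genes, 2 of 23 members tested were called higher and 2 lower (2 and 1 without wild-type mice 1 and 2, 2 to 3 and 1 to 2 with a single mouse left out). Camk2d, the delta form of calmodulin kinase II, read 4771, 5741 and 6409.5 in line 41 mice, against 2674, 3560.3 and 3719.8 in wild-type mice (0.75, SE 0.13, adjusted p = 0.001), without overlap. Myoz3, a Z-disc protein that binds calcineurin, rose by 0.48, SE 0.092 and was without overlap, and Ppp3cc, a catalytic subunit of calcineurin, fell (-0.55, SE 0.13). Rcan1, a feedback inhibitor and target of calcineurin, read 4495, 5612 and 16429 in line 41 mice, against 4384, 9452 and 15522 in wild-type mice and did not pass the test (-0.15, SE 0.41).

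Ion channels were called in both directions. Of the chloride channels, 0 of 11 members tested were called higher and 1 lower, the 1 being Clcn1 (0 and 1 without wild-type mice 1 and 2, 0 and 1 with a single mouse left out). Of the potassium channel genes, 4 of 27 members tested were called higher and 4 lower (3 and 2 without wild-type mice 1 and 2, 3 to 4 and 3 to 4 with a single mouse left out). Kcnc4, a fast delayed rectifier, read 3196, 4314 and 5092 in line 41 mice, against 2107, 2484 and 2978 in wild-type mice (0.74, SE 0.11, adjusted p = 0.0002). Kcnq5, a slow delayed rectifier, read 4130.2, 4475 and 5681 in line 41 mice, against 2126, 2846 and 4702 in wild-type mice (0.62, SE 0.15, adjusted p = 0.011). The groups were apart for Kcnc4 and overlapped for Kcnq5. Of the sodium channel and pump genes, 3 of 16 members tested were called higher and 0 lower (1 and 0 without wild-type mice 1 and 2, 3 and 0 with a single mouse left out). Atp1b4, a muscle protein of the pump's beta subunit family, read 712, 1737 and 3631 in line 41 mice, against 149, 348 and 1452 in wild-type mice (2.01, SE 0.49, adjusted p = 0.014), with an adjusted p of 0.09 without wild-type mice 1 and 2. Fxyd1, the regulator of the pump called phospholemman, read 7236, 7453 and 8353 in line 41 mice, against 5689, 6174 and 6517 in wild-type mice (0.32, SE 0.05, adjusted p = 0.00048), with the groups apart.

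Splicing regulators were called lower where they were called at all. Of the muscleblind, CELF, RBFOX and other splicing regulators, 0 of 36 members tested were called higher and 4 lower (0 and 3 without wild-type mice 1 and 2, 0 and 3 to 4 with a single mouse left out), and the median log2 difference was -0.073. Rbfox1, a splicing regulator of muscle and neurons, read 24104, 29516 and 31784 in line 41 mice, against 38166, 40962 and 48142 in wild-type mice (-0.53, SE 0.067, adjusted p = 8e-05). Celf2 read 5257, 7708 and 9358 in line 41 mice, against 9967, 10995 and 11936 in wild-type mice (-0.54, SE 0.11, adjusted p = 0.003). Srsf6, an SR protein, read 3302, 4467 and 5092 in line 41 mice, against 5557, 6153 and 6747 in wild-type mice (-0.51, SE 0.094, adjusted p = 0.002). None of these 3 had overlapping groups. With the probe set brightest in this experiment the calls of Celf2 and Srsf6 were lost. Mbnl2 (-0.24, SE 0.10) and Celf1 (-0.06, SE 0.067) did not pass the test. Of muscle transcripts known to be spliced by MBNL1, 6 of 38 members tested were called higher and 4 lower (2 and 2 without wild-type mice 1 and 2, 3 to 9 and 2 to 5 with a single mouse left out), with values from -0.51 for the capping protein gene Capzb to 0.49 for Bin1. The other Capzb probe sets read 0.026 and 0.36 and were not called.

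Sarcomere genes were taken as a fast and a slow list. Of the fast fibre genes, 3 of 24 members tested were called higher and 0 lower (2 and 0 without wild-type mice 1 and 2, 2 to 4 and 0 with a single mouse left out), with a median of -0.0099. Mybph, a myosin-binding protein, read 4402, 6632 and 10079 in line 41 mice, against 1255, 1733 and 3544 in wild-type mice (1.77, SE 0.24, adjusted p = 0.00011), without overlap, while the troponins Tnni2 (-0.039, SE 0.059) and Tnnt3 (0.021, SE 0.049) did not pass the test. Of the slow fibre genes, 3 of 16 members tested were called higher and 0 lower (1 and 0 without wild-type mice 1 and 2, 2 to 4 and 0 with a single mouse left out). The median of the slow list was 0.63, and it was -0.18 without wild-type mice 1 and 2. Slow myosin Myh7 read 2141 and 211 in those 2 mice, against 10376 to 17536 in the other 4 wild-type mice, and 6747 to 16962 in line 41 mice. Smtnl1, a smoothelin-like regulator of contraction, rose with and without them (1.00, SE 0.16).

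Among actins and their crosslinkers, 1 of 10 members tested was called higher and 4 lower (1 and 4 without wild-type mice 1 and 2, 1 and 3 to 5 with a single mouse left out). Beside Actc1, the crosslinkers Actn1, at 375, 446 and 507 in line 41 mice, against 642, 702 and 831 in wild-type mice (-0.71, SE 0.11, adjusted p = 0.00065), and Actn4 fell, both without overlap. The other Actn1 probe sets read -0.25 and 0.0052 and were not called. The Actn4 difference was -0.35, SE 0.093, adjusted p = 0.022, and the call was lost without wild-type mouse 2 (-0.32 with an adjusted p of 0.05). The 2 probe sets of beta actin, Actb, were called in opposite directions: the one used read 0.73, SE 0.11 and the other, the brighter of the 2 in this experiment, read -0.65 (adjusted p = 0.0057). No direction is given for Actb. Of copines, annexins, ferlins and membrane repair genes, 4 of 22 members tested were called higher and 1 lower (3 and 1 without wild-type mice 1 and 2, 4 to 5 and 0 to 1 with a single mouse left out), among them Anxa4 (0.50, SE 0.10), a membrane-binding annexin, and calpain Capn1 (0.54, SE 0.093). Of the unconventional myosins with Myo1a, 1 of 12 members tested was called higher and 2 lower (1 and 0 without wild-type mice 1 and 2, 1 and 0 to 2 with a single mouse left out).

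Several genes of immature or denervated muscle were called higher. Of embryonic muscle genes and myogenic factors, 4 of 28 members tested were called higher and 0 lower (2 and 0 without wild-type mice 1 and 2, 2 to 5 and 0 to 1 with a single mouse left out). Embryonic myosin Myh3 read 268, 355 and 726 in line 41 mice, against 93.1, 134 and 332 in wild-type mice (1.29, SE 0.29, adjusted p = 0.0084). The atrial and embryonic light chain Myl4 read 669, 957 and 1788 in line 41 mice, against 83.9, 362 and 781 in wild-type mice (1.59, SE 0.37, adjusted p = 0.011). Both had 1 or more overlapping mice, and a second Myl4 probe set read 0.15. Myogenin, Myog, ranged from 561 to 2667 in line 41 and from 320.0 to 3473 in wild type and was not called. Of neuromuscular junction and denervation genes, 6 of 23 members tested were called higher and 0 lower (2 and 1 without wild-type mice 1 and 2, 2 to 6 and 0 with a single mouse left out), Sln being one of them. Chrna1, a subunit of the acetylcholine receptor, read 1503, 2001 and 3183 in line 41 mice, against 1259, 1359 and 1529 in wild-type mice (0.59, SE 0.13, adjusted p = 0.0077), with overlap. Both lists held the adhesion protein Ncam1, which rose by 0.76, SE 0.21, with other probe sets at -0.0085 and 0.41, and its call was lost without line 41 mouse 3, wild-type mouse 1 or 2 or wild-type mice 1 and 2 together (adjusted p up to 0.14). Fits without line 41 mouse 1 or 3 or without wild-type mouse 1 or 2 lowered the count of the junction list to 2 or 3.

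Growth arrest genes and small heat shock proteins held several rises, and stretch genes were called in both directions. Of p53 targets and growth arrest genes, 5 of 24 members tested were called higher and 2 lower (3 and 1 without wild-type mice 1 and 2, 2 to 5 and 2 to 3 with a single mouse left out). Eda2r, a receptor of the tumour necrosis factor family and a p53 target, read 5224, 7609.5 and 11175 in line 41 mice, against 1152, 1471 and 1739 in wild-type mice (2.36, SE 0.17, adjusted p = 8.7e-08), without overlap. Gadd45a, a stress gene that both this list and the junction list hold, rose by 1.02, SE 0.29, and its call was lost without line 41 mouse 1, 3 or 4, wild-type mouse 1, 2, 3, 4 or 6 or wild-type mice 1 and 2 together (adjusted p up to 0.093). Phlda3, a p53 target that restrains Akt, read 1996, 2425 and 2906 in line 41 mice, against 983, 1460.3 and 2111 in wild-type mice (0.75, SE 0.15, adjusted p = 0.0039), with overlap. Cdkn1a, the cell cycle inhibitor p21, read 1358, 1613 and 2601 in line 41 mice, against 638, 796 and 1088 in wild-type mice (1.13, SE 0.31, adjusted p = 0.027), and its groups did not overlap. Its call was lost without line 41 mouse 1 (1.02 with an adjusted p of 0.0548) or mouse 3 (1.03 with an adjusted p of 0.0637) and without wild-type mouse 1 (1.07 with an adjusted p of 0.0594) or mouse 2 (1.06 with an adjusted p of 0.054).

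Of the small heat shock proteins, 4 of 9 members tested were called higher and 0 lower (2 and 0 without wild-type mice 1 and 2, 4 to 5 and 0 with a single mouse left out), with all 9 above 0 and a median of 0.41. Hspb2, a partner of the kinase DMPK, read 4073, 5054 and 5615 in line 41 mice, against 3392, 3679 and 3902 in wild-type mice (0.45, SE 0.087, adjusted p = 0.0028). Hspb3 read 9397, 10639 and 11513 in line 41 mice, against 8074, 8702 and 8989 in wild-type mice (0.29, SE 0.072, adjusted p = 0.014), both without overlap. Hspb7 and Hspb6 rose by 1.00, SE 0.24 and 0.41, SE 0.10, and these 2 calls were lost without wild-type mice 1 and 2. Crystallin Cryab (0.10, SE 0.20) and Hspb1 (0.60, SE 0.28) did not pass the test. Among the large heat shock proteins and cochaperones, 2 of 33 members tested were called higher and 0 lower (1 and 0 without wild-type mice 1 and 2, 1 to 2 and 0 with a single mouse left out). Hspa2, a chaperone known from testis, read 1111, 1357 and 1592 in line 41 mice, against 467, 605 and 677 in wild-type mice (1.23, SE 0.11, adjusted p = 1.6e-06), without overlap, while stress-induced Hspa1a ranged from 209.9 to 5289.8 in line 41 and from 75.2 to 2882 in wild type. Of stretch and mechanical stress genes, 5 of 33 members tested were called higher and 1 lower (2 and 3 without wild-type mice 1 and 2, 2 to 7 and 1 to 2 with a single mouse left out). Mustn1 led the rises, and Pdlim7, a scaffold of the Z-disc and of bone formation, read 2880.3, 3931 and 5206 in line 41 mice, against 6239, 7325 and 7918 in wild-type mice (-0.86, SE 0.13, adjusted p = 0.0003), without overlap. The other Pdlim7 probe sets read -0.46 and -0.10 and were not called. Ankrd1, a marker of stretched muscle, ran from 845 to 28056 in line 41 and from 175 to 19497 in wild type and was not called.

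Growth factor signalling held changes in both directions. Of the insulin, IGF, myostatin and TGF-beta genes, 3 of 40 members tested were called higher and 4 lower (2 and 4 without wild-type mice 1 and 2, 2 to 3 and 4 to 6 with a single mouse left out). The ligand Tgfb3 read 2904, 3161 and 3669 in line 41 mice, against 1149, 1807 and 1879 in wild-type mice (1.00, SE 0.13, adjusted p = 6.3e-05). Ltbp1, which stores latent TGF-beta in the matrix, read 1316, 1446 and 1610.2 in line 41 mice, against 679, 919.8 and 1085 in wild-type mice (0.68, SE 0.10, adjusted p = 0.0004). The activin and myostatin receptor Acvr2a read 3601, 5463 and 7404 in line 41 mice, against 8124, 8258 and 12322 in wild-type mice (-0.77, SE 0.15, adjusted p = 0.0026). Igfbp5, a binding protein for insulin-like growth factors, read 7913, 9875 and 12564 in line 41 mice, against 12792, 16986 and 21469 in wild-type mice (-0.77, SE 0.14, adjusted p = 0.0021). The groups were apart for all 4. The insulin-like growth factor Igf1 did not pass the test (-0.90, SE 0.34). Grb10, an imprinted adaptor that restrains insulin signalling, read 1229.6, 1477 and 1756 in line 41 mice, against 2736, 2974 and 3838 in wild-type mice (-1.11, SE 0.10, adjusted p = 1.7e-06), while its other probe sets read -0.60 and 0.0066 and were not called. It was 1 of 2 called lower among 19 imprinted genes tested, with 1 called higher (1 and 2 without wild-type mice 1 and 2, 0 to 2 and 1 to 2 with a single mouse left out). The imprinted RNA Meg3 was not called in line 41 (0.16, SE 0.30) and was higher in line 20b (3.08, SE 0.30).

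Metabolic genes were called in both directions. Called members made up 16.22% of the glycolysis and glycogen list and 26.09% of the mitochondrial fusion and fission list. They made up 7.317% of the fatty acid list and 9.375% of the respiratory chain and TCA cycle list. The share over all genes tested was 9.44%. Of the glycolysis and glycogen genes, 2 of 37 members tested were called higher and 4 lower (1 and 5 without wild-type mice 1 and 2, 1 to 3 and 1 to 4 with a single mouse left out). Gys1, muscle glycogen synthase, read 6576, 7419 and 8792 in line 41 mice, against 5025, 5732 and 6247 in wild-type mice (0.41, SE 0.075, adjusted p = 0.0018), without overlap. Pfkfb3, the enzyme that makes the activator of glycolysis, read 5217, 11539 and 29512 in line 41 mice, against 21799, 24345 and 32160.5 in wild-type mice (-1.04, SE 0.28, adjusted p = 0.025), and the call was lost without line 41 mouse 4 (-0.98 with an adjusted p of 0.0539), wild-type mouse 4 (-0.99 with an adjusted p of 0.0516) or wild-type mouse 6 (-0.97 with an adjusted p of 0.0511). Of the fatty acid genes, 2 of 41 members tested were called higher and 1 lower (2 and 0 without wild-type mice 1 and 2, 2 to 3 and 0 to 3 with a single mouse left out), and Hadha, of the mitochondrial trifunctional protein, rose by 0.40, SE 0.094 and Acsl6, an acyl-CoA synthetase, by 0.42, SE 0.076. A second Acsl6 probe set read -0.11. Of the respiratory chain and TCA cycle genes, 1 of 64 members tested was called higher and 5 lower (1 and 1 without wild-type mice 1 and 2, 1 to 2 and 1 to 5 with a single mouse left out), with a median of -0.0095. Uqcrc2, a core subunit of the third respiratory complex, fell (-0.26, SE 0.056) and Ndufa4, a small subunit of the chain, rose (0.27, SE 0.054), while citrate synthase Cs did not pass the test (-0.048, SE 0.043). Of the mitochondrial fusion and fission genes, 3 of 23 members tested were called higher and 3 lower (1 and 0 without wild-type mice 1 and 2, 2 to 4 and 0 to 3 with a single mouse left out), with Fis1, the fission receptor, at 11315, 12512 and 14412 in line 41 mice, against 8946, 9678 and 10854 in wild-type mice (0.37, SE 0.06, adjusted p = 0.00061).

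Of the proteasome subunits, 5 of 36 members tested were called higher and 2 lower (2 and 1 without wild-type mice 1 and 2, 3 to 5 and 0 to 3 with a single mouse left out). Psmd4, the subunit that binds ubiquitin chains, read 6014, 6832 and 7033 in line 41 mice, against 4495, 5129 and 5623 in wild-type mice (0.39, SE 0.064, adjusted p = 0.0007). The catalytic-core subunit Psmb2 read 2216, 2402 and 3163 in line 41 mice, against 1602, 1903 and 2072 in wild-type mice (0.45, SE 0.10, adjusted p = 0.0071), both without overlap. Of the other Psmd4 probe sets, one read 0.057 and was not called, and one was called higher (0.41). Of the atrophy genes and metallothioneins, 3 of 25 members tested were called higher and 0 lower (0 and 0 without wild-type mice 1 and 2, 2 to 4 and 0 with a single mouse left out), and the muscle ubiquitin ligases Trim63 (0.062, SE 0.12) and Fbxo32 (0.36, SE 0.21) did not pass the test. Of the ATF4 and amino acid stress genes, 0 of 28 members tested were called higher and 1 lower (0 and 1 without wild-type mice 1 and 2, 0 and 1 with a single mouse left out), namely Slc3a2, the heavy chain of amino acid transporters (-0.33, SE 0.085), while Atf4 itself did not pass the test (-0.0019, SE 0.084). Of the polyamine genes, 1 of 11 members tested was called higher and 0 lower (1 and 0 without wild-type mice 1 and 2, 1 and 0 to 1 with a single mouse left out), namely Sat1, which acetylates spermidine for its breakdown, at 2625, 3654 and 4003 in line 41 mice, against 1634, 2341 and 2894 in wild-type mice (0.65, SE 0.14, adjusted p = 0.007). Of the dystrophin complex genes, 4 of 20 members tested were called higher and 1 lower (1 and 1 without wild-type mice 1 and 2, 1 to 4 and 1 to 2 with a single mouse left out). Sarcoglycan Sgca rose (0.28, SE 0.063) and dystroglycan Dag1 fell (-0.26, SE 0.064), both without overlap, while dystrophin, Dmd, did not pass the test (0.018, SE 0.083). Of the cytosolic ribosomal proteins, 4 of 29 members tested were called higher and 0 lower (1 and 0 without wild-type mice 1 and 2, 2 to 5 and 0 with a single mouse left out). Of the immediate-early genes, 1 of 26 members tested was called higher and 0 lower (1 and 0 without wild-type mice 1 and 2, 0 to 2 and 0 to 1 with a single mouse left out). Of the clock genes, 1 of 19 members tested was called higher and 1 lower (0 and 0 without wild-type mice 1 and 2, 0 to 1 and 0 to 1 with a single mouse left out).

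Blood vessel genes were lower in line 41. Of 24 endothelial markers tested, 11 were called lower and none higher (0 and 8 without wild-type mice 1 and 2, 0 and 7 to 11 with a single mouse left out), all 24 had a log2 difference below 0, and the median was -0.41. The mean log2 intensity over the endothelial list was 9.976 to 10.44 in line 41 mice and 10.71 to 10.91 in wild-type mice, and the groups did not overlap. Line 41 mouse 3 was the lowest, at 9.976. Without line 41 mouse 3 the count called lower was 7, and it was also 7 without wild-type mouse 1. Sox7, a transcription factor of endothelium, read 472, 823 and 1430.2 in line 41 mice, against 1350.2, 1776 and 3161 in wild-type mice (-1.30, SE 0.28, adjusted p = 0.0057). VE-cadherin Cdh5 read 424, 891 and 1058 in line 41 mice, against 999.5, 1477 and 1956 in wild-type mice (-0.87, SE 0.20, adjusted p = 0.0086), both with overlap. A second Cdh5 probe set read -0.31 and was not called. Sox17, a relative of Sox7, fell in line 41 by 0.93 on the log2 scale. A second Sox17 probe set read -0.31 and was not called. Ptprb, the endothelial phosphatase, read 3397, 4564 and 5480.2 in line 41 mice, against 6513, 7651 and 8329 in wild-type mice (-0.73, SE 0.11, adjusted p = 0.00048) and did not overlap. Pecam1, the junction protein used to define the type, was called (-0.47, SE 0.14, adjusted p = 0.039), but the call was lost when any of line 41 mice 2 to 5 or wild-type mice 1 and 3 to 6 was left out (adjusted p up to 0.084).

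Of 14 mural cell markers tested, 7 were called lower and none higher (0 and 7 without wild-type mice 1 and 2, 0 and 7 to 8 with a single mouse left out), with a median of -0.45. The mean over the mural list was 10.39 to 10.71 in line 41 and 10.87 to 11.06 in wild type, again without overlap. Kcnj8, a potassium channel of pericytes, read 591, 769 and 1158 in line 41 mice, against 1347, 1475 and 2099.7 in wild-type mice (-0.92, SE 0.18, adjusted p = 0.0032). Myh11, smooth muscle myosin, read 678, 933 and 1255 in line 41 mice, against 1301, 1453 and 1660.0 in wild-type mice (-0.66, SE 0.12, adjusted p = 0.0022). Rgs5, a regulator of G protein signalling in pericytes, read 15804, 22035 and 25338 in line 41 mice, against 26505, 31676 and 35908 in wild-type mice (-0.51, SE 0.10, adjusted p = 0.003). The groups were apart for these 3. Pdgfrb, the receptor that recruits pericytes, fell in line 41 (-0.64, SE 0.14), while a second probe set read -0.071. It differed between the lines (line 41 minus line 20b -0.55, SE 0.14, adjusted p = 0.029). Of the other vessel genes named, Sox7, Cdh5, Ptprb, Pecam1, Sox17, Kcnj8, Myh11, Rgs5 and Notch3 were not called between the lines (adjusted p from 0.14 to 0.99). In line 20b, which shares the wild-type mice, Cdh5 (-0.72, SE 0.20), Ptprb (-0.61, SE 0.11), Pecam1 (-0.73, SE 0.14) and Sox17 (-0.87, SE 0.22) were called lower. So were Kcnj8 (-0.65, SE 0.18), Myh11 (-0.58, SE 0.12) and Notch3 (-0.52, SE 0.11), while Sox7 (-0.57, SE 0.28) and Rgs5 (-0.27, SE 0.10) were not called. In whole muscle, fewer cells of a type and less RNA per cell cannot be told apart. In Mbnl1-null muscle Ptprb differed from its wild type by -0.022, SE 0.11. There Kcnj8 differed by 0.12, SE 0.22 and Myh11 by 0.10, SE 0.11, and none of the 3 was called. Sox7 was called lower there (-1.23, SE 0.25, adjusted p = 0.0065).

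**Figure D4:**
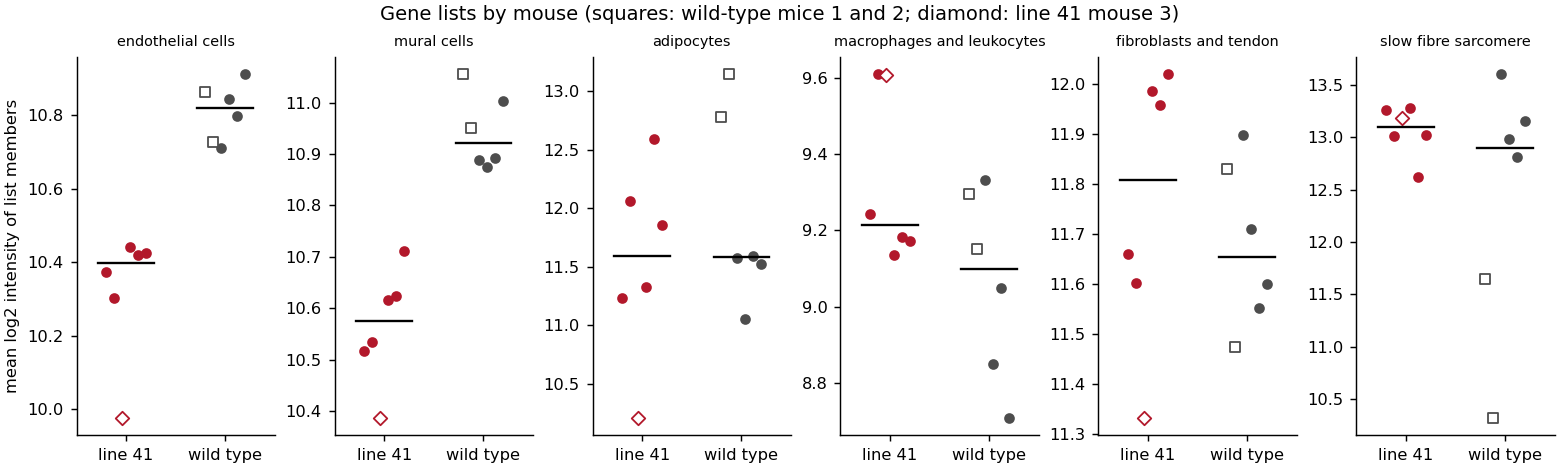
Mean log2 intensity over the tested members of 6 lists in each line 41 mouse (red, left) and wild-type mouse (grey, right), with black bars at the medians; open squares are wild-type mice 1 and 2 and the open diamond is line 41 mouse 3. The endothelial and mural means do not overlap between the groups, while the 2 open squares set the top of the adipocyte panel and the bottom of the slow fibre panel.

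Other cell type lists held fewer calls. Of 19 adipocyte markers tested, 0 were called higher and 1 lower (0 and 0 without wild-type mice 1 and 2, 0 and 0 to 1 with a single mouse left out). The median of -0.43 became 0.021 without wild-type mice 1 and 2. Their mean ran from 10.21 to 12.59 in line 41, against 12.77 and 13.14 in wild-type mice 1 and 2 and 11.05 to 11.59 in the other wild-type mice. Of 26 macrophage and leukocyte markers, 1 was called, higher (1 and 0 without wild-type mice 1 and 2, 0 to 4 and 0 with a single mouse left out). It was Cd68, a lysosomal protein of macrophages, at 266, 644 and 1243 in line 41 mice, against 99.1, 233 and 414 in wild-type mice (1.46, SE 0.39, adjusted p = 0.025). The Cd68 call was lost without line 41 mouse 2 (1.27 with an adjusted p of 0.0559) or mouse 3 (1.34 with an adjusted p of 0.0596) or wild-type mouse 4 (1.22 with an adjusted p of 0.057). Of 23 fibroblast and tendon markers, 2 were called higher and none lower (2 and 0 without wild-type mice 1 and 2, 2 and 0 to 1 with a single mouse left out), Cilp and the tubulin-binding protein Tppp3, which read 4054, 5894 and 6085 in line 41 mice, against 963, 2623 and 3189 in wild-type mice (1.28, SE 0.21, adjusted p = 0.0007). Pdgfra, a defining marker of fibroblast progenitors, did not pass the test by the probe set used (-0.018, SE 0.15), and a second one was called higher (0.46, adjusted p = 0.041). Of nerve and Schwann cell markers 2 of 11 were called lower (0 and 0 without wild-type mice 1 and 2, 0 and 0 to 2 with a single mouse left out), and of satellite cell markers 1 of 15, Notch3, which the mural list also holds (-0.52, SE 0.11). The satellite cell counts were 0 and 1 without wild-type mice 1 and 2, 0 and 1 with a single mouse left out. Of blood cell markers none of 5 was called (0 and 0 without wild-type mice 1 and 2, 0 and 0 with a single mouse left out). Of collagens and matrix proteins, 2 of 37 members tested were called higher and 3 lower (1 and 1 without wild-type mice 1 and 2, 1 to 2 and 0 to 3 with a single mouse left out). Of matrix proteases and inhibitors, 1 of 21 members tested was called higher and 3 lower (1 and 2 without wild-type mice 1 and 2, 0 to 1 and 1 to 3 with a single mouse left out). Of interferon and RNA sensing genes, 0 of 24 members tested were called higher and 2 lower (0 and 0 without wild-type mice 1 and 2, 0 and 1 to 3 with a single mouse left out). The double-stranded RNA kinase Eif2ak2 did not pass the test (-0.059, SE 0.13). Col1a1, the main fibrillar collagen, did not pass the test (-0.35, SE 0.22). The satellite cell factor Pax7 was not called (-0.043, SE 0.068). The part of these cell type lists in the results above was not tested.

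Line 41 was set beside line 20b, the second repeat line, by testing the difference between the lines: 753 genes were called (5.81%), 302 higher and 451 lower in line 41. Of the 1223 genes called in line 41 against wild type, 226 were among these. Line 41 lay nearer wild type for 162 of the 226, farther for 31, and on the opposite side for 33. Kcnab1 differed from wild type by -2.02, SE 0.33 in line 41 and -4.68, SE 0.33 in line 20b (line 41 minus line 20b 2.65, SE 0.33, adjusted p = 0.00022). Pdlim7 differed by -0.86, SE 0.13 and -2.01, SE 0.13 in the same order (1.15, SE 0.13, adjusted p = 7.7e-05), and Eda2r by 2.36, SE 0.17 and 3.28, SE 0.17 (-0.92, SE 0.17, adjusted p = 0.0038). Sln was not called between the lines (-0.42, SE 0.64, adjusted p = 0.81), and neither was Uchl1 (0.10, SE 0.47, adjusted p = 0.95) nor Actc1 (-0.22, SE 0.18, adjusted p = 0.6).

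The largest called differences between the lines with line 41 higher were those of Kcnab1, Hmga2-ps1, Gdap1, Pfkfb3 and Slc38a4, and with line 41 lower those of Mreg, Meg3, Gys2, Col24a1 and Neu2. Gys2, the liver form of glycogen synthase, was -0.62, SE 0.58 from wild type in line 41 and 1.88, SE 0.58 in line 20b (-2.50, SE 0.58, adjusted p = 0.015). Col24a1, a fibrillar collagen, was 0.72, SE 0.51 and 3.04, SE 0.51 (-2.31, SE 0.51, adjusted p = 0.012). The amino acid transporter Slc38a4, an imprinted gene, was -0.89, SE 0.31 and -2.66, SE 0.31 (1.76, SE 0.31, adjusted p = 0.0025), and the pseudogene Hmga2-ps1 -0.51, SE 0.36 and -2.72, SE 0.36 (2.21, SE 0.36, adjusted p = 0.0017). For all 4 of these, and for Meg3, line 41 was nearer wild type than line 20b. A second Slc38a4 probe set, brighter in this experiment, read 0.021 from wild type in line 41 and 0.61 between the lines.

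A set of 58 genes was called in line 41, not called in line 20b and called between the lines, 36 higher and 22 lower in line 41 than in wild type. The largest changes among them, chosen after their values were seen, were Hpgd, Snd1, Pdgfrb and Rraga, leaving out Actb, whose 2 probe sets disagree between the lines as well (0.51 and -0.41). Hpgd, which inactivates prostaglandins, read 163, 365 and 877 in line 41 mice, against 92.3, 102 and 337 in wild-type mice (1.38, SE 0.37, adjusted p = 0.023). In line 20b Hpgd was -0.22, SE 0.37 from wild type. Its line 41 call was lost without line 41 mouse 3 or wild-type mouse 4 or 5 (adjusted p up to 0.054). Snd1, a nuclease of the RNA-induced silencing complex, read 1306, 1456 and 1701 in line 41 mice, against 731, 963 and 1104 in wild-type mice (0.65, SE 0.10, adjusted p = 0.00048). In line 20b Snd1 was 0.25, SE 0.10 from wild type. Rraga, a GTPase of amino acid sensing, read 2874, 3766 and 4725 in line 41 mice, against 1978, 2297 and 3139 in wild-type mice (0.61, SE 0.12, adjusted p = 0.0043). In line 20b Rraga was 0.0046, SE 0.12 from wild type. Pfn1, an actin-binding profilin chosen in the same way, read 9274, 11813 and 14303 in line 41 mice, against 7491, 7804 and 8756 in wild-type mice (0.54, SE 0.08, adjusted p = 0.00031). In line 20b Pfn1 was 0.0088, SE 0.08 from wild type. Cdkn1c, an imprinted inhibitor of the cell cycle, was on opposite sides of wild type in the lines, at 0.40, SE 0.12 in line 41 and -0.46, SE 0.12 in line 20b. Its line 41 call was lost when any of line 41 mice 1, 4 and 5 or wild-type mice 1, 3, 5 and 6 was left out (adjusted p up to 0.072).

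**Figure D5:**
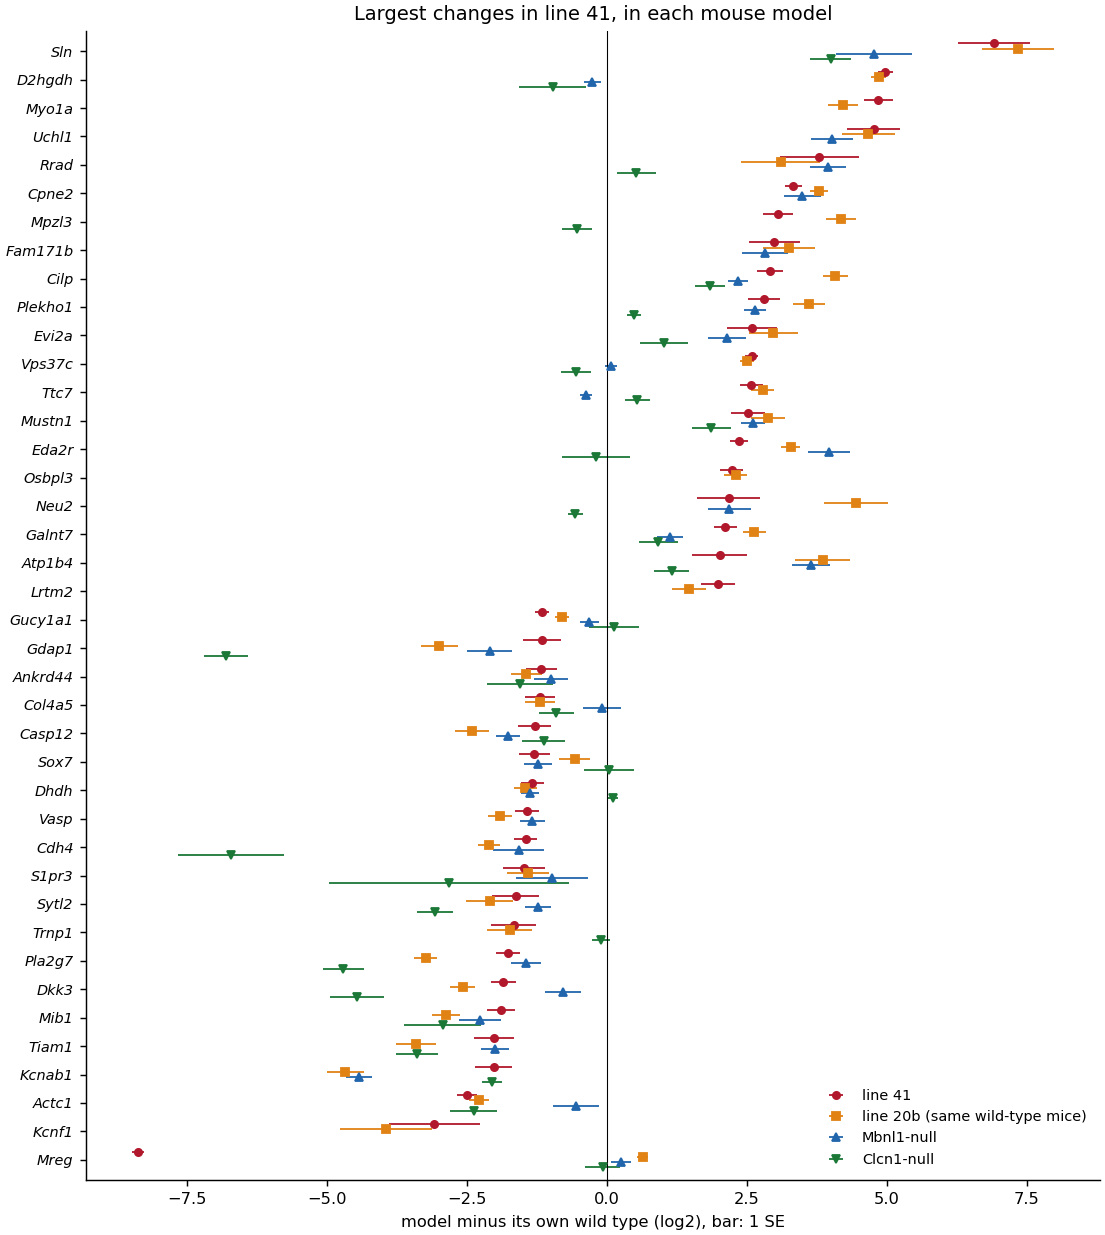
Log2 difference from each model's own wild type, with 1 SE, for the 20 largest rises and 20 largest falls in line 41; red circles are line 41, orange squares line 20b (the same wild-type mice), blue triangles Mbnl1-null and green triangles Clcn1-null, and a missing symbol is a gene not tested in that experiment. Mreg lies at -8.38 in line 41 and at 0.64, 0.25 and -0.076 in line 20b, Mbnl1-null and Clcn1-null muscle, and D2hgdh, Vps37c and Ttc7 are high in both repeat lines. The Mbnl1-null and Clcn1-null symbols of Ttc7 may stand for a gene of a longer name and are not read here.

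The Mbnl1-null and Clcn1-null experiments share no mice with line 41. In Mbnl1-null muscle 16.3% of genes tested there were called. Of the 514 genes called higher in line 41, tested there or not, 207 were called higher in Mbnl1-null muscle and at most 5 lower. Of the 709 genes called lower in line 41, 212 were called lower in Mbnl1-null muscle and at most 8 higher. Among the 8965 genes tested there, 728 were called higher and 734 lower. Opposite calls are given as upper bounds, because some genes not tested there had been matched to a gene of a longer name. For the same reason, shares over the genes tested in both experiments are not given. In Clcn1-null muscle 5.8% of genes were called. Of the 514 genes called higher in line 41, 25 were called higher in Clcn1-null muscle and at most 23 lower. Of the 709 genes called lower in line 41, 81 were called lower in Clcn1-null muscle and at most 13 higher. Among the 13244 genes tested there, 322 were called higher and 446 lower. Age differs between the experiments, as does array type for Mbnl1-null and strain for Clcn1-null. These cannot be told apart from genotype in these counts. Sln was called higher in Mbnl1-null and Clcn1-null muscle (4.77, SE 0.68 and 4.00, SE 0.37). Actc1 was called lower in Clcn1-null muscle (-2.38, SE 0.42) and not called in Mbnl1-null muscle (-0.55, SE 0.40).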

How the data were processed

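Quadriceps total RNA, prepared with Tri-Reagent, was biotin-labelled with an Enzo kit, per the labels' protocols. The authors deposited linear intensities, 1 per probe set, made with GCRMA per the submitters' processing notes. Its version and settings are not given in the sources used here. Their log2 was taken. Each gene was read by its probe set with exactly 1 symbol and the highest mean over the 3 experiments (34945 of 45037 probe sets have 1 symbol, 932 have several and 9160 none), and 12955 genes with an intensity of at least 32 on 6 or more mice were tested. limma 3.58.1 in R 4.3.3 fitted all 3 groups of the experiment, 430A and 430B apart, with a trended prior, and p-values were adjusted together by Benjamini and Hochberg, with an adjusted p under 0.05 as the call. The other experiments were fitted with the same model, with the intensity of 32 required in as many mice as 1 group of the experiment held. The Mbnl1-null experiment used a single array type and was fitted as a whole. Adjusted p-values of other probe sets were adjusted over all probe sets. Other probe sets are given for only some of the named genes. A 430A and a 430B array were joined by the number in their titles. Replicates are separate mice, and the number of arrays limits the precision.

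Named genes are Clcn1, Mbnl1 and Acta1, the 20 largest called changes each way without clone names, called and defining members of each list, the 5 largest differences between the lines each way, and neighbours of Mreg and D2hgdh. Called list members whose call rested on 1 mouse are mostly counted but not named. The members and lists were chosen with earlier results of these data known. Correlations of same-numbered line 41 and wild-type mice ran from -0.0875 to 0.351, the highest for number 3. Nothing in the labels pairs mice between groups, and no block was used. Data were simulated once for line 41 against wild type over 12955 genes, with 200 genes changed in all, by 0.5 or 1 log2 units. The fit recovered 63% of the genes changed by 0.5 and 96% of those changed by 1. Of its calls, 4.22% were false. The noise was drawn apart for each gene and mouse, so mice that stand apart over many genes were not part of the simulation. It also changed 200 genes, while 1223 were called in the data. These shares therefore describe that setting and not the calls reported. The result of 1 gene list is not reported here.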

Additional observations from a re-analysis of the deposited data

Results flagged for a closer look

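Each of the 161 genes named was checked for a single mouse set apart from the other 5 of its group by Dixon's ratio, 322 groups of 6 mice in all, and 25 mice stood apart; chance alone sets apart about 1 group in 20. The values below are log2 intensities. Among line 41 mice the highest mouse stood apart for Spag16 in mouse 1 (6.389), Ankrd44 in mouse 5 (8.851) and Col4a5 in mouse 5 (8.693), and the lowest for Tiam1 in mouse 6 (6.159), Dkk3 in mouse 5 (8.535), Hadha in mouse 6 (14.05), Cdh5 in mouse 3 (8.729), Tppp3 in mouse 2 (11.98) and Notch3 in mouse 3 (10.57). Among wild-type mice the highest mouse stood apart for Fn1 in mouse 1 (12.82), Smarcal1 in mouse 5 (10.89), Osbpl3 in mouse 1 (6.673), Hspb6 in mouse 3 (14.96), Ankrd1 in mouse 3 (14.25), Pecam1 in mouse 6 (11.51), Gadd45a in mouse 5 (11.32) and Cryab in mouse 3 (15.53), and the lowest for Pecr in mouse 3 (10.67), Xrcc5 in mouse 3 (10.21), Galnt7 in mouse 4 (7.457), S1pr3 in mouse 3 (7.254), Ankrd44 in mouse 4 (7.751), Tppp3 in mouse 2 (9.912), Eif2ak2 in mouse 5 (9.998) and Slc38a4 in mouse 2 (11.67).

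The difference between the lines was tested for the same genes, and 47 were called. Line 41 minus line 20b, in log2 units, was above 0 for Kcnab1 (2.652), Hmga2-ps1 (2.211), Gdap1 (1.826), Pfkfb3 (1.811), Slc38a4 (1.761), Hpgd (1.602), Pla2g7 (1.471), Tiam1 (1.39), Acvr2a (1.226), Pdlim7 (1.151), Casp12 (1.111), Igfbp5 (1.012), Mib1 (0.9867), Cdkn1c (0.8655), Rraga (0.6024), Hadha (0.5818), Pfn1 (0.5351), Clcn1 (0.4851), Celf2 (0.4232), Snd1 (0.4032), Psmb2 (0.3625), Rbfox1 (0.3355), Casq1 (0.2349), Ryr1 (0.2163), Ndufa4 (0.1871) and Myh4 (0.1149). It was below 0 for Mreg (-9.017), Meg3 (-2.922), Gys2 (-2.502), Col24a1 (-2.313), Neu2 (-2.272), Atp1b4 (-1.841), Cilp (-1.168), Mpzl3 (-1.127), Tppp3 (-0.9878), Eda2r (-0.9222), Smtnl1 (-0.7646), Pdgfrb (-0.5506), Hspa2 (-0.5407), Camk2d (-0.5397), Hspb3 (-0.533), Kcnc4 (-0.4986), Tgfb3 (-0.4451), Gys1 (-0.3078), Uqcrc2 (-0.2501) and Fxyd1 (-0.2067). For Actb the probe set used read 0.5065 between the lines and the brighter one read -0.41, so no direction is given.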

How the results depend on the processing

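The count of 1223 genes called in line 41 against wild type was between 1049 and 1349 under quantile normalisation, a median shift of each array, a filter at log2 7, the brightest probe set of this experiment, a flat or robust prior, array weights and one fit over both array types, and it was 974 with no filter. With every probe set taken it was 2196 (1017 higher, 1179 lower), and the count between the lines was 1574. With line 41 and wild type fitted alone it was 823, of which 455 lower. At an adjusted p under 0.01 it was 502 (245 higher, 257 lower, 23 of them lower at least 2-fold), 253 between the lines, and 226 and 60 calls were shared the same way with Mbnl1-null and Clcn1-null muscle. Without wild-type mice 1 and 2 it was 773, with 408 lower. With each mouse left out in turn the count ran from 888 to 1256, the higher calls from 400 to 473, the lower calls from 451 to 783, at least 2-fold higher from 61 to 80, at least 2-fold lower from 30 to 53, between the lines from 503 to 903, shared with Mbnl1-null from 339 to 427 and with Clcn1-null from 87 to 127. The lowest counts of 888, 451 and 30 were those without wild-type mouse 1. A shift of each array to a common median of the genes tested, chosen after seeing the data, gave 1253 genes, 731 higher and 522 lower, against 514 and 709 in the values reported. Quantile normalisation gave 649 higher and 645 lower, and the median shift over all probe sets gave 491 higher and 558 lower. The excess of lower calls thus depended on the normalisation. The replicate block gave 1274 genes. The correlations of same-numbered mice, in order of number, were 0.0202, 0.144, 0.351, 0.00917, -0.0875 and 0.0199. The mice of number 3 thus deviated together in part, and nothing in the labels pairs mice between groups. Of the 113 calls named, the block ended none, line 41 and wild type fitted alone ended 12, leaving out wild-type mice 1 and 2 ended 18, an adjusted p under 0.01 ended 31, and the brightest probe set of this experiment ended 4 and reversed 2. The reversed ones were Col4a5, at 0.027, and Actb, at -0.65. No value exists for the shared calls with every probe set, or between the lines when line 41 and wild type are fitted alone. For line 41 against wild type, by the probe set used, no named call given without a remark on a left-out mouse was lost in those 12 fits. Calls between the lines, in the other models and of other probe sets were not followed gene by gene in these fits. The causes of these shifts were not tested.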
